A study of Mus musculus with 9 samples.

Results

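A set of 10 genes of the Notch pathway was examined in nephron progenitors that lack a subunit of mitochondrial complex III, namely the receptors *Notch1*, *Notch2* and *Notch3*, the ligands *Dll1* and *Jag2*, the glycosyltransferase *Lfng*, and the targets *Hes1*, *Hes5*, *Hey1* and *Heyl*. These 10 genes were taken by symbol from a table of read counts for 26858 genes. Cells were sorted by eGFP at age E18.5 from *Six2-Qpc*+/- control kidneys (n = 4 libraries) and *Six2-Qpc*-/- mutant kidneys (n = 5 libraries). A transgene on a bacterial artificial chromosome, in which the *Six2* promoter drives Cre fused to eGFP, recombines the floxed *Qpc* gene (*Uqcrq*), so the cells are chosen by the activity of that promoter. Control cells carry the same transgene and have lost 1 *Qpc* allele, so both groups express Cre and neither has an intact gene pair. The study reports that eGFP-positive cells were a smaller share of mutant than of control kidney cells. It does not fully exclude that some differentiating control cells with weak eGFP were sorted too. The labels do not say whether the libraries came from separate animals, litters or sorting days, and p-values therefore measure the spread between these samples, which may in part be technical.

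Notch receptors are single-pass membrane proteins that are activated by Delta-like and Jagged ligands on a neighbouring cell. Ligand binding leads to cleavage by an ADAM protease and then by γ-secretase, and the freed intracellular domain enters the nucleus, where it joins the DNA-binding protein RBPJ and a Mastermind co-activator. The targets include the *Hes* and *Hey* genes, which encode basic helix-loop-helix repressors, and *Nrarp*, which encodes a feedback inhibitor. In the developing kidney, Notch signaling is known for moving SIX2 progenitors out of the progenitor state and for patterning the early nephron, with *Notch2* as the main receptor.

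Between 22571729 and 23691130 reads were counted in each control library and between 21040536 and 23986458 in each mutant library. Levels are given as counts per 1000000 counts of the normalized library (CPM), and the genotypes were compared with the quasi-likelihood test of edgeR across 14990 genes, the others having too few reads. A gene was called when its p-value, adjusted by the Benjamini-Hochberg method over all 14990 genes, was under 0.05. Values are listed for control replicates 71, 72, 73 and 76 and for mutant replicates 74, 75, 77, 78 and 79, in that order. The targeted gene *Uqcrq* (chromosome 11, 53427922 to 53430831) had 107, 76.8, 91.1 and 101 CPM in control and 16.5, 28.2, 22.6, 20.3 and 19.0 CPM in mutant libraries. The genotypes did not overlap, which matches the labels, and *Uqcrq* fell by 2.14 on the log2 scale (edgeR, adjusted p = 2.09e-05 with a standard error of 0.16).

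Of the 10 Notch genes, 9 passed the filter on low counts, and *Hes1* was the 1 gene called. This is 11.1% of the 9 genes, beside 14.8% of all genes tested, of which 7.82% were called higher and 7.02% called lower. The median log2 fold change of the 9 genes was −0.23, beside −0.01 for all genes tested, with 2 fitted values above and 7 below 0. Leaving out mutant replicate 74 moved this median to −0.44, and leaving out control replicate 71, 72 or 76 moved it to −0.36, −0.14 or −0.34. The receptors, ligands, *Lfng* and the other targets did not pass the threshold in either direction, and 3 of the 9 genes (*Hes1*, *Heyl* at 0.0126 and *Notch3* at 0.0249) had an unadjusted p under 0.05 in the edgeR fit, beside 31.4% of all genes tested. Both DESeq2, which called 17.7% of all genes it tested, and limma-voom, which called 32.4%, called 2 of the 9 genes, *Hes1* and *Heyl*. Control replicates 72 and 76 and mutant replicates 74 and 77 often lay at the ends of their genotype for these genes. Levels in a sorted population cannot separate fewer cells of one kind from less RNA per cell.

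**Figure D1:**
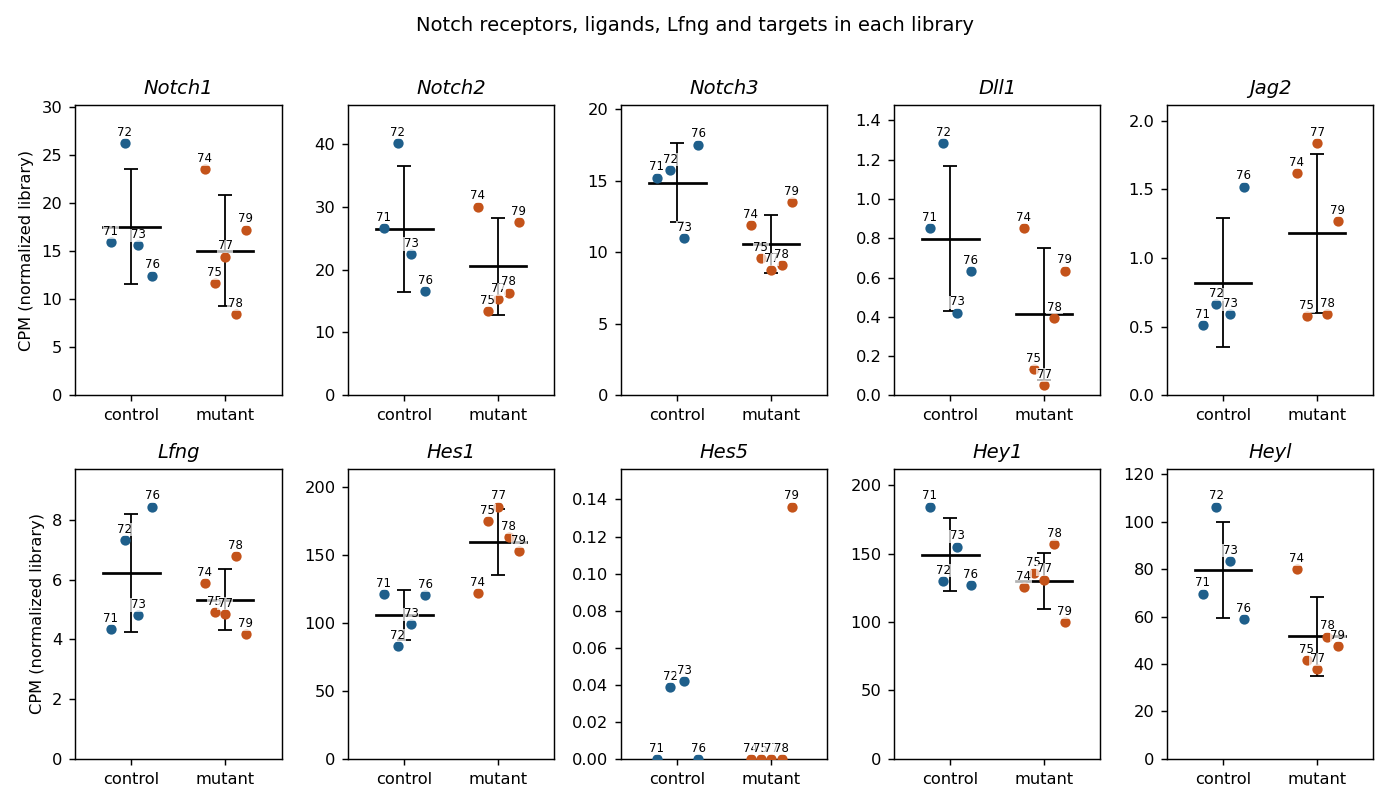
CPM of the 10 Notch genes in each library, with 1 point per library labelled by its replicate number, a line at the mean of the genotype and bars of 1 SD (4 control and 5 mutant libraries; no mean is drawn for *Hes5*, which had at most 3 reads). The 5 mutant libraries lie above the 4 control libraries for *Hes1*, and the genotypes overlap for the other genes.

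*Hes1* encodes a repressor that keeps progenitors of many tissues undifferentiated and is the best known direct Notch target. *Hes1* (ENSMUSG00000022528, chromosome 16, 30064384 to 30067796) had 121.4, 83.1, 98.9 and 120.3 CPM in control libraries and 122.0, 174.9, 185.6, 162.9 and 152.8 CPM in mutant libraries. The mutant libraries were all above the control libraries, but mutant replicate 74 was at the level of control replicates 71 and 76, and the other 4 mutant libraries stood clear of every control. Among all genes tested, 15.2% had no overlap between genotypes, and 7.5% had none with mutant libraries higher. With upper-quartile or RLE factors in place of the TMM factors of edgeR, mutant replicate 74 (120.4 and 121.5 CPM) fell below the highest control library (125.2 and 122.1 CPM). *Hes1* rose from 106 ± 18.4 CPM (SD, n = 4) to 160 ± 24.4 CPM (SD, n = 5), a 1.51-fold change with a log2 value of 0.59 (standard error 0.15, 95% confidence interval 0.27 to 0.91, adjusted p = 0.0198, edgeR). The 2-sided exact permutation test over all 126 assignments of libraries to genotypes gave p = 0.0159, and the smallest value it allows is 0.00794. The call was lost without control replicate 72 (log2 fold change 0.49, adjusted p = 0.0596) and without control replicate 73 (0.56, adjusted p = 0.0677), and the log2 fold change stayed between 0.45 and 0.71 over all 17 refits.

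*Heyl* and *Hey1* encode repressors of the HEY family, which are Notch targets in blood vessels and in the early nephron. *Heyl* (ENSMUSG00000032744, chromosome 4, 123233556 to 123249875) had 69.7, 106, 83.4 and 59.1 CPM in control libraries and 79.9, 41.7, 37.7, 51.6 and 47.6 CPM in mutant libraries. Of the 5 mutant libraries, 4 were below every control library, and mutant replicate 74 lay within the control range. The difference in *Heyl* was −0.62 on the log2 scale (standard error 0.22, 95% confidence interval −1.09 to −0.16, adjusted p = 0.0681, edgeR), which did not pass the threshold. Without mutant replicate 74 it was −0.84 (adjusted p = 0.00571) and without control replicate 76 it passed at an adjusted p of 0.0423. DESeq2 (adjusted p = 0.0397), limma-voom with sample quality weights (adjusted p = 0.00438) and a fit with 1 surrogate variable (−0.41, adjusted p = 0.0493) also called *Heyl*. Its log2 fold change was −0.45 without control replicate 72 (adjusted p = 0.211, edgeR), with no call. The call of *Heyl* thus depends on the tool and on single libraries.

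*Hey1* (ENSMUSG00000040289, chromosome 3, 8663362 to 8667039) had 184, 130, 155 and 127 CPM in control libraries and 126, 136, 131, 157 and 99.7 CPM in mutant libraries. The ranges overlapped over most of their length, with 2 mutant libraries below all controls and 1 control library above all mutants. Its log2 fold change was −0.20 (standard error 0.15, 95% confidence interval −0.52 to 0.12, adjusted p = 0.377, edgeR), an interval that leaves out a 1.51-fold rise such as that of *Hes1*. Dropping control replicate 71 brought it to −0.085 and dropping mutant replicate 79 to −0.12. *Hes5*, the target most used as a readout in neural progenitors (ENSMUSG00000048001, chromosome 4, 154960923 to 154962371), had 0, 1, 1 and 0 reads in control and 0, 0, 0, 0 and 3 reads in mutant libraries. These counts are at or under a floor of 3 reads per library, so *Hes5* was not detectable at this depth in either genotype and no fold change is given.

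Levels of the 3 expressed targets can be set against each other within a library. The ratio of *Hes1* to *Hey1*, each per kb of gene length, was 0.989, 0.958, 0.957 and 1.42 in control libraries and 1.46, 1.93, 2.13, 1.56 and 2.30 in mutant libraries. Control replicate 76 was close to the lowest mutant libraries, and the other 3 control libraries were well below them. The ratio of *Hes1* to *Heyl* was 5.39, 2.42, 3.67 and 6.29 in control and 4.72, 13.0, 15.2, 9.76 and 9.91 in mutant libraries. Mutant replicate 74 fell inside the control range and the other mutant libraries were above it. The ratio of *Hey1* to *Heyl* was between 2.52 and 5.45 in control and between 3.24 and 7.15 in mutant libraries, so the ranges overlapped. A ratio within a library does not depend on the scaling of that library, but these 3 pairs were chosen after the levels had been seen, and the ratios are given with no test. *Hes1*, *Hey1* and *Heyl* also differ in length (1468, 2203 and 4537 bases). Differences between libraries that go with gene length, given below, are not removed from the ratios.

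**Figure D2:**
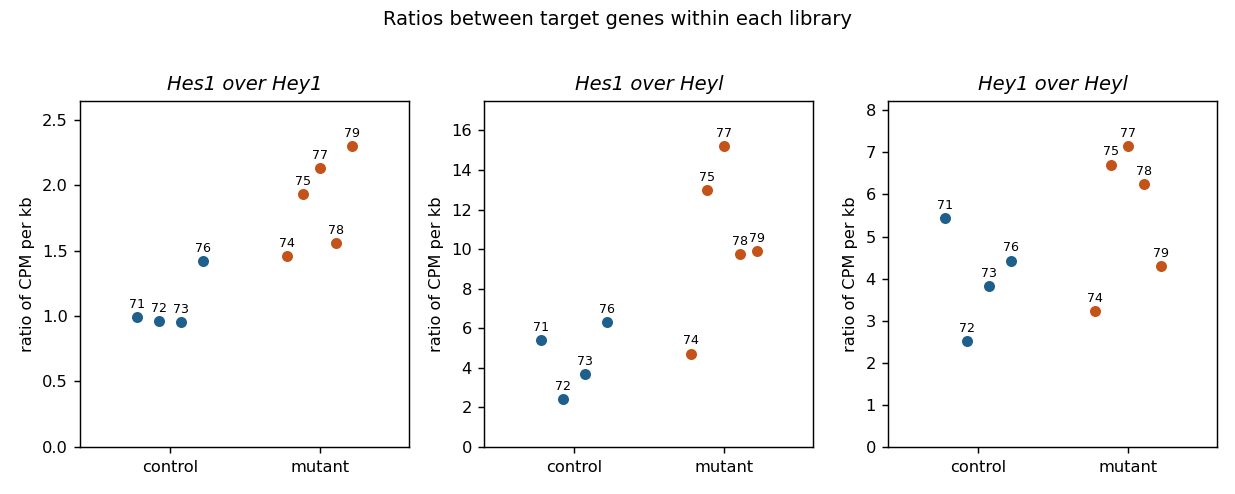
Ratios of CPM per kb between pairs of target genes within each library (vertical axis, no unit), with 1 point per library labelled by its replicate number (4 control, 5 mutant). Mutant libraries lie between 1.46 and 2.30 for *Hes1* over *Hey1*, above the control range of 0.957 to 1.42, while *Hey1* over *Heyl* overlaps.

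The 3 receptors were all detected in every library, and none was called. *Notch3*, which marks vascular mural cells as well as nephron cells (ENSMUSG00000038146, chromosome 17, 32120820 to 32166880), had 15.2, 15.7, 11.0 and 17.5 CPM in control and 11.9, 9.61, 8.77, 9.10 and 13.5 CPM in mutant libraries. Of the mutant libraries, 3 were below every control library, and control replicate 73 fell within the mutant range. Its log2 fold change was −0.49 (standard error 0.19, 95% confidence interval −0.91 to −0.07, adjusted p = 0.103, edgeR), and the exact permutation test gave an unadjusted p of 0.0397. The same permutation test gave 0.0556 for *Heyl*, 0.159 for *Dll1*, 0.254 for *Hey1* and 0.333 for *Jag2*. It gave 0.357 for *Notch2*, 0.397 for *Lfng* and 0.524 for *Notch1*.

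*Notch2* (ENSMUSG00000027878, chromosome 3, 98013538 to 98150367) had 26.7, 40.1, 22.5 and 16.6 CPM in control and 30.0, 13.4, 15.3, 16.3 and 27.6 CPM in mutant libraries. *Notch1* (ENSMUSG00000026923, chromosome 2, 26457903 to 26516663) had 15.9, 26.2, 15.6 and 12.4 CPM in control and 23.5, 11.6, 14.4, 8.41 and 17.2 CPM in mutant libraries. Both genes were highest in control replicate 72 among controls and in mutant replicate 74 among mutants, and for both the genotypes overlapped widely. Fitted log2 fold changes were −0.37 for *Notch2* (standard error 0.28, 95% confidence interval −0.97 to 0.24, adjusted p = 0.404, edgeR) and −0.22 for *Notch1* (standard error 0.28, 95% confidence interval −0.83 to 0.39, adjusted p = 0.633, edgeR). Both values depended on single libraries. Without control replicate 72, *Notch2* had a log2 fold change of −0.095 and *Notch1* changed direction, to 0.038. With 1 surrogate variable the log2 fold change of *Notch2* was −0.11, and without mutant replicate 78 that of *Notch1* was −0.071. With mutant replicate 74 left out instead, that of *Notch1* was −0.44.

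The ligands of the set were close to the limit of detection. *Dll1*, which presents the signal in the renal vesicle (ENSMUSG00000014773, chromosome 17, 15367354 to 15376872), had 0.852, 1.29, 0.421 and 0.633 CPM in control and 0.852, 0.133, 0.0510, 0.394 and 0.635 CPM in mutant libraries. Few reads stand behind these levels, 10 to 33 in each control and 1 to 20 in each mutant library, and 3 mutant libraries were below all controls. Its log2 fold change of −0.93 had a 95% confidence interval from −2.30 to 0.44 (edgeR, adjusted p = 0.344 with a standard error of 0.64), so a large fall and a small rise both lie within it. It was −0.60 when control replicate 72 was left out. *Jag2* (ENSMUSG00000002799, chromosome 12, 112908590 to 112929495) had 0.511, 0.662, 0.590 and 1.52 CPM in control and 1.62, 0.576, 1.84, 0.590 and 1.27 CPM in mutant libraries, from 12 to 38 reads each. A single control library (1.52 CPM) and 3 mutant libraries (at least 1.27 CPM) were high and the rest lay between 0.511 and 0.662 CPM, and the log2 fold change was 0.52 (standard error 0.50, 95% confidence interval −0.55 to 1.59, adjusted p = 0.512, edgeR). This value was 1.01 without control replicate 76, the high control library, and 0.31 without mutant replicate 77, with no call in either case.

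*Lfng* encodes the Fringe enzyme that adds a sugar to Notch receptors and changes which ligands they answer to. *Lfng* (ENSMUSG00000029570, chromosome 5, 140607341 to 140615543) had 4.35, 7.32, 4.80 and 8.44 CPM in control and 5.88, 4.91, 4.85, 6.79 and 4.17 CPM in mutant libraries. The mutant values lay within the control range apart from replicate 79, just below it. On the log2 scale the difference was −0.23 (standard error 0.25, 95% confidence interval −0.77 to 0.32, adjusted p = 0.581, edgeR). Single libraries moved it from −0.37 (control replicate 71 left out) to −0.033 (control replicate 76 left out), and limma-voom gave −0.048.

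Per kb of gene length, *Hes1*, *Hey1* and *Heyl* were far above the receptors and ligands in these cells, while *Hes5* was not detectable. In control libraries the mean level was 72.2 CPM per kb for *Hes1*, 67.7 for *Hey1* and 17.5 for *Heyl*, followed by 2.73 for *Lfng*, 2.52 for *Notch2*, 1.85 for *Notch1*, 1.85 for *Notch3*, 0.223 for *Dll1* and 0.202 for *Jag2*. *Hes1* and *Hey1* were not apart in control libraries (56.6 to 82.7 and 57.7 to 83.7 CPM per kb), nor were *Lfng*, *Notch2*, *Notch1* and *Notch3* (1.31 to 3.82 CPM per kb), or *Dll1* and *Jag2* (0.118 to 0.375 CPM per kb). The control libraries of *Heyl* (13.0 to 23.4 CPM per kb) overlapped neither those of *Hes1* and *Hey1* above nor those of *Lfng* below, and those of the ligands did not reach any receptor. In mutant libraries *Hes1* (83.1 to 126 CPM per kb) stood above *Hey1* (45.3 to 71.1 CPM per kb) with no overlap, and *Jag2* had a mean of 0.291 and *Dll1* of 0.115 CPM per kb, with overlapping libraries.

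**Figure D3:**
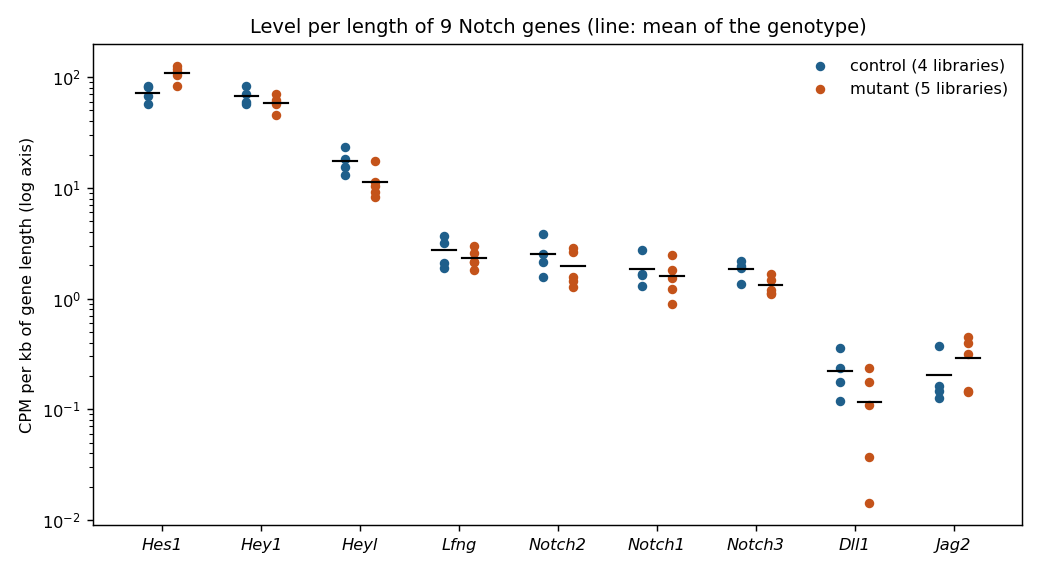
CPM per kb of gene length (log axis) of the 9 Notch genes above the low-count filter, with 1 point per library and a line at the mean of each genotype (4 control, 5 mutant libraries). The targets *Hes1*, *Hey1* and *Heyl* lie between 8.31 and 126, *Lfng* and the receptors between 0.887 and 3.82, and the ligands at or below 0.453.

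The same libraries were often at the ends of their genotype. Control replicate 72 was the highest control for *Notch1*, *Notch2*, *Dll1* and *Heyl* and the lowest for *Hes1*, and mutant replicate 74 was the highest mutant for the same 4 genes and the lowest for *Hes1*. Control replicate 76 was the lowest control for *Notch1*, *Notch2*, *Hey1* and *Heyl*, and mutant replicate 77 was the highest mutant for *Hes1* and *Jag2* and the lowest for *Notch3*, *Dll1* and *Heyl*. Gene length moved with part of this: *Notch1* (9488 bases), *Notch2* (10506 bases) and *Notch3* (8044 bases) are long, and the 668 tested genes over 8000 bases had a median log2 deviation from the mean of their genotype of 0.116 in control replicate 72, 0.145 in mutant replicate 74 and 0.175 in mutant replicate 79. In the other libraries it lay between −0.124 and 0.013. The median log2 fold change of these 668 genes, mutant against control, was 0.16, beside −0.028 for tested genes under 2000 bases. *Hes1* (1468 bases) is short, and the 4345 tested genes under 2000 bases had the opposite deviations, −0.162 in control replicate 72, −0.113 in mutant replicate 74 and −0.124 in mutant replicate 79, and between −0.047 and 0.177 in the other libraries. The trend on gene length was also removed from each library, a step chosen after the data were seen. It takes away the rise of long genes in mutant libraries (median 0.16) as well. Lower values of the receptors thus follow from the step itself, and it cannot show the part of length in them. *Notch3* then passed the threshold (log2 fold change −0.63, adjusted p = 0.0249, edgeR). *Notch2* (−0.53, adjusted p = 0.144, edgeR) and *Notch1* (−0.37, adjusted p = 0.327, edgeR) did not. *Heyl*, which is not among these long genes, also passed (−0.62, adjusted p = 0.0371, edgeR), as did *Hes1* (0.66, adjusted p = 0.00369, edgeR).

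A further 60 genes of the pathway, from receptors to co-repressors, were listed by role, and 55 of them passed the low-count filter. Of these, 4 rose (*Dlk1*, *Mib1*, *Maml1* and *Maml2*), 3 fell (*Notch4*, *Tle2* and *Nrarp*) and 48 did not pass the threshold. The 7 called genes are 12.7% of the 55, beside 14.8% of all genes tested, and the median log2 fold change was 0.03. By DESeq2 9 and by limma-voom 21 of the 55 genes were called, beside the same 17.7% and 32.4% of all genes. The genotypes did not overlap for 7 of the 55 genes, beside 15.2% of all genes tested. *Dll4*, *Hes2*, *Hes3*, *Hes7* and *Helt* had too few reads to be tested.

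**Figure D4:**
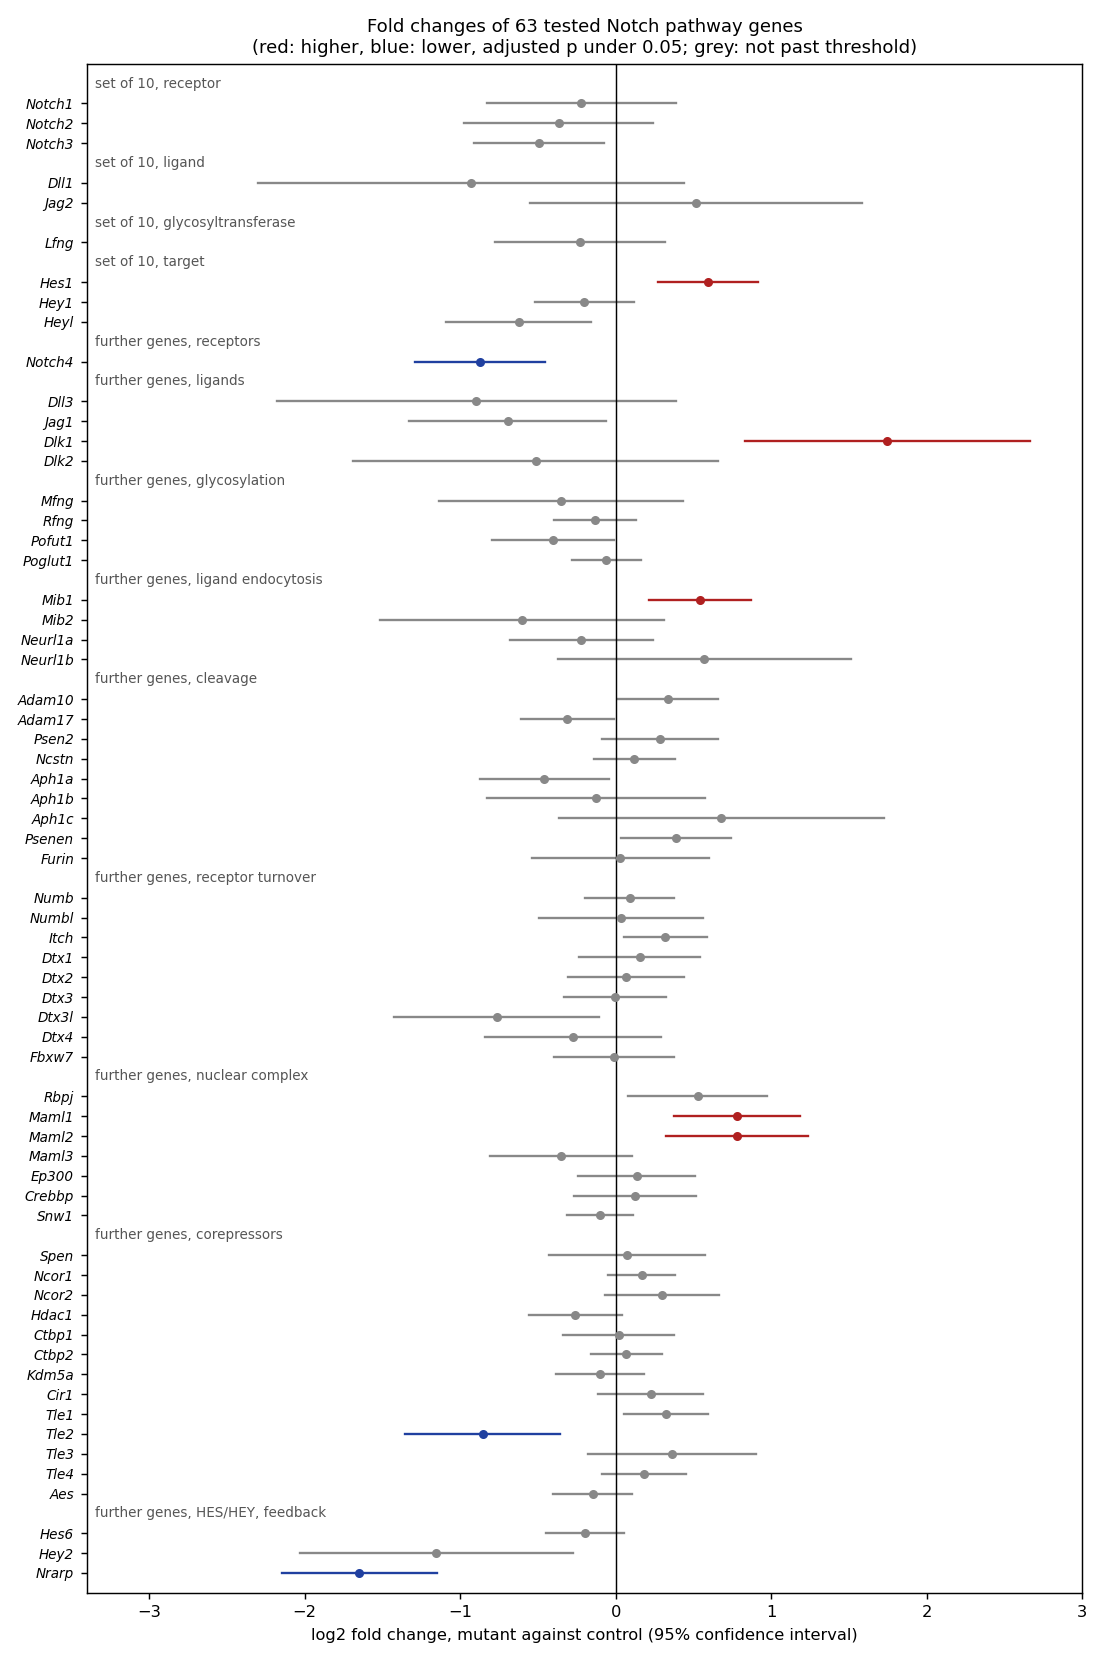
Log2 fold change, mutant against control, of 63 tested pathway genes with 95% confidence intervals from the edgeR fit (9 of the set of 10 and 54 further genes, by role). Red marks the 5 genes that rose and blue the 3 that fell at an adjusted p under 0.05, and grey marks the rest.

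*Nrarp* encodes a small ankyrin-repeat protein that is induced by Notch signaling and promotes the loss of the Notch intracellular domain. *Nrarp* (chromosome 2, 25180758 to 25183339) had 10.4, 10.4, 11.8 and 7.26 CPM in control and 4.13, 2.75, 2.91, 2.46 and 3.63 CPM in mutant libraries. The genotypes were widely apart, the highest mutant library (replicate 74) lying well under the lowest control (replicate 76). *Nrarp* was 3.13-fold lower in mutant cells, and its log2 change was −1.65 (standard error 0.23, 95% confidence interval −2.15 to −1.15, adjusted p = 0.00116, edgeR), and it was called in all 17 refits. The identifier on its row of the table belongs to another gene, so the row was taken by its symbol, and its coordinates are those of *Nrarp* in GENCODE M21. Its exons share 2051 bases with *Gm38287* on the opposite strand, and since the libraries did not keep the strand, reads from the 2 genes cannot be told apart.

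*Hey2*, the third *Hey* gene, had 2.94, 4.01, 3.58 and 3.16 CPM in control and 2.68, 0.443, 1.38, 1.13 and 2.04 CPM in mutant libraries, from 10 to 103 reads each. It is named because its libraries did not overlap, a choice made after its values were seen, and 7.73% of all tested genes had mutant libraries wholly lower. Its log2 fold change of −1.15 (edgeR, adjusted p = 0.0714 with a standard error of 0.41) did not pass the threshold, but it passed without mutant replicate 74 (−1.45, adjusted p = 0.0217) and by DESeq2 (adjusted p = 0.0335) and limma-voom (adjusted p = 0.00574). *Hes6* was the most abundant gene of this group, with a mean of 132 CPM in control and 115 CPM in mutant libraries (adjusted p = 0.272, edgeR). Among the targets tested in these cells, *Hes1* was thus higher in mutant libraries and *Nrarp* lower, and the *Hey* genes had fitted values below 0 without a call in the edgeR fit of all 9 libraries.

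The sequences upstream of the target genes are shown because RBPJ reads a short DNA core, written here as TGGGAA or, on the other strand, TTCCCA. HES and HEY proteins bind the E-box CACGTG and the N-box CACNAG, which reads CTNGTG on the other strand. RefSeq windows of 250 bases upstream of a gene start (build GRCm38.p6) were found for 7 of the 10 genes, and none was found for *Hes1*, *Hey1* and *Heyl*. The RBPJ core was present in the windows of *Lfng* and *Hes5*, in both orientations, and in no window of *Notch1*, *Notch2*, *Notch3*, *Dll1* or *Jag2*. Among 32817 windows of this length, 21.6% held the core in at least 1 orientation and 1.28% held both, 6.02% held CACGTG, and 36.7% held the N-box. The windows of *Lfng* and *Hes5* are set beside those of *Nrarp* and *Hey2*, whose mutant libraries were wholly lower, and capitals mark the RBPJ core and the E-box.
Lfng, chr5:140607091-140607340, plus strand: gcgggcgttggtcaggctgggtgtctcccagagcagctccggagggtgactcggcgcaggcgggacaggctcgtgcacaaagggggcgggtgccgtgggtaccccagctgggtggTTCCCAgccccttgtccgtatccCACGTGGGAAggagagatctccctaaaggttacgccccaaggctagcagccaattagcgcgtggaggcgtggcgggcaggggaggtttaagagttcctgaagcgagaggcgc
Hes5, chr4:154960673-154960922, plus strand: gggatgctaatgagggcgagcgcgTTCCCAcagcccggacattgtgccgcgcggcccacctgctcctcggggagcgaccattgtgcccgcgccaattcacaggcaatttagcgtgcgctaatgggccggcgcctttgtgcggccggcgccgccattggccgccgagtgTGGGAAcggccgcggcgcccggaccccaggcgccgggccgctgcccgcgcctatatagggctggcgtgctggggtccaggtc
Nrarp, chr2:25180508-25180757, plus strand: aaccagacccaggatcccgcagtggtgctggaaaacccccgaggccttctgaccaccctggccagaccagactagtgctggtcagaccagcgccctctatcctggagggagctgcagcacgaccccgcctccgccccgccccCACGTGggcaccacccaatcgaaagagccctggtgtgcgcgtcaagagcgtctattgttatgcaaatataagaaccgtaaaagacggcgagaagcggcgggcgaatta
Hey2, chr10:30842784-30843033, minus strand: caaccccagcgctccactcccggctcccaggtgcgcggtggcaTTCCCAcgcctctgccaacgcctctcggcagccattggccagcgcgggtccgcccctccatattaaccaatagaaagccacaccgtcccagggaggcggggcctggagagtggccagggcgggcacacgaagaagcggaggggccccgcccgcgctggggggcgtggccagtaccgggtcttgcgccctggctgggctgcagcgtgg
In *Lfng*, TTCCCA began 135 bases and TGGGAA 108 bases before the start of the gene, and the latter overlapped a CACGTG that began at 112 bases by 2 bases. In *Hes5* the same letters began at 226 and 82 bases. The *Nrarp* window held CACGTG at 108 bases and no core, and the *Hey2* window held TTCCCA at 207 bases. The N-box, which is not in capitals, began at 181 bases in *Lfng* and at 179 and 79 bases in *Nrarp*, and was in neither the *Hes5* nor the *Hey2* window. Of the other windows of the set, those of *Notch1* (108 bases), *Notch2* (247 bases) and *Notch3* (204 and 159 bases) held it and those of *Dll1* and *Jag2* did not. A match is a stretch of letters and not a measured binding site.

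The fourth receptor, *Notch4*, is known from endothelium (chromosome 17, 34564268 to 34588503). It had 11.1, 9.77, 9.10 and 7.13 CPM in control and 4.65, 5.05, 5.05, 5.61 and 5.04 CPM in mutant libraries, without overlap. *Notch4* fell by 0.87 on the log2 scale (edgeR, adjusted p = 0.0117 with a standard error of 0.19), and it was called in all 17 refits. The endothelial marker list (8 genes) summed to 15.3, 14.3, 16.9 and 15.6 CPM in control and 17.9, 13.3, 13.3, 11.4 and 12.3 CPM in mutant libraries. Its most abundant gene *Egfl7* fell from 11.5 to 7.19 CPM (adjusted p = 0.0180, edgeR) and *Pecam1* rose from 0.248 to 1.36 CPM (adjusted p = 0.0469, edgeR). *Egfl7* and *Pecam1* were the 2 genes called of 5 tested, beside 14.8% of all genes tested. The defining marker *Cdh5* had 0, 0, 0 and 1 reads in control and 17, 5, 5, 2 and 4 reads in mutant libraries. The part of endothelial transcripts in the fall of *Notch4* was not tested.

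Among the further ligands, *Dlk1*, a non-canonical ligand of mesenchymal and stromal cells that lacks the DSL domain of the Delta and Jagged ligands, rose 3.36-fold (chromosome 12, 109452823 to 109463336). It had 11.6, 15.7, 26.2 and 11.3 CPM in control and 77.9, 95.2, 28.8, 44.4 and 25.7 CPM in mutant libraries. The mutant libraries differed more among themselves than the controls did, and the lowest of them was just under control replicate 73. On the log2 scale the rise was 1.75 (edgeR, adjusted p = 0.0190 with a standard error of 0.42), and the call was lost without control replicate 71 (1.62, adjusted p = 0.0520) or control replicate 72 (1.73, adjusted p = 0.0798), with 1 surrogate variable (adjusted p = 0.0548), or with no low-count filter (adjusted p = 0.0949). Of 6 stromal markers, 5 were called higher (*Foxd1*, *Pdgfra*, *Col1a1*, *Col3a1* and *Meis1*), beside 7.82% of all genes tested. The 6 markers summed to 106, 115, 86.1 and 130 CPM in control and 359, 584, 187, 214 and 278 CPM in mutant libraries. The most abundant of them, *Col3a1*, went from 15.3 to 83.1 CPM. The 2 mutant libraries with the most *Dlk1*, replicates 74 and 75, also had the highest stromal sums. Mutant replicate 79 had the least *Dlk1* of the mutants at a stromal sum of 278 CPM. Among controls the order was reversed at both ends. Control replicate 73 had the most *Dlk1* and the lowest sum, and control replicate 76 the least *Dlk1* and the highest sum. The part of stromal cells or transcripts in the rise of *Dlk1* was not tested.

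*Jag1*, the Jagged ligand of the renal vesicle, had 11.3, 11.6, 14.9 and 5.74 CPM in control and 10.9, 5.31, 6.07, 4.82 and 6.58 CPM in mutant libraries. Control replicate 76 was at the level of most mutants and mutant replicate 74 at the level of most controls, and the log2 fold change of −0.69 did not pass the threshold (edgeR, adjusted p = 0.125 with a standard error of 0.29). It passed without control replicate 76 (−0.90, adjusted p = 0.0406) and without mutant replicate 74 (−0.94, adjusted p = 0.0264), and limma-voom with all libraries also called it (−1.03, adjusted p = 0.0118). These 2 libraries had the lowest control and the highest mutant levels of *Heyl* as well. The study names *Jag1* among the genes downregulated in mutant cells by RNA-seq. It also reads staining for JAG1 and other markers as an absence of renal vesicles. With DESeq2 the log2 fold change of *Jag1* here was −0.68 (adjusted p = 0.0882), with no call.

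On the side of signal reception and transcription, *Maml1* and *Maml2*, which encode Mastermind co-activators, both rose. *Maml1* had 7.97, 9.46, 9.10 and 11.6 CPM in control and 16.2, 13.2, 15.5, 15.3 and 21.7 CPM in mutant libraries (log2 fold change 0.78, edgeR, adjusted p = 0.0168 with a standard error of 0.19). *Maml2* had 7.20, 6.27, 6.41 and 6.03 CPM in control and 14.4, 13.7, 7.91, 10.03 and 9.66 CPM in mutant libraries (0.78, edgeR, adjusted p = 0.0276 with a standard error of 0.21). Neither gene overlapped between genotypes, and 7.5% of all genes tested had mutant libraries wholly higher. The third Mastermind gene, *Maml3*, was not called. The call of *Maml1* was lost without control replicate 71 (0.70, adjusted p = 0.0513) or 73 (0.76, adjusted p = 0.0567), and that of *Maml2* was lost without any 1 control replicate or mutant replicate 75, at adjusted p-values of 0.0502 to 0.0784.

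*Rbpj*, which encodes the DNA-binding partner of all Notch receptors, had 54.8, 59.7, 65.6 and 96.7 CPM in control and 64.2, 94.5, 134, 114 and 93.6 CPM in mutant libraries. Control replicate 76 lay among the mutants and mutant replicate 74 among the controls. Its log2 fold change of 0.53 did not pass the threshold (edgeR, adjusted p = 0.0996 with a standard error of 0.21) and passed without control replicate 76 (0.75, adjusted p = 0.0290) or mutant replicate 74 (0.65, adjusted p = 0.0210), as it did by limma-voom with all libraries (0.67, adjusted p = 0.00835).

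*Mib1* encodes the ubiquitin ligase that lets ligand-bearing cells take up their ligands. It had 36.3, 35.4, 38.4 and 55.6 CPM in control and 56.8, 57.0, 56.4, 59.3 and 71.8 CPM in mutant libraries. Control replicate 76 was just below the lowest mutant library and overlapped the mutants when libraries were scaled by their totals. *Mib1* rose by 0.54 on the log2 scale (edgeR, adjusted p = 0.0315 with a standard error of 0.15), and the call was lost without control replicates 71, 72 or 73 or mutant replicates 78 or 79 (0.47 to 0.55, adjusted p = 0.0609 to 0.0998) and with the length trend removed (0.39, adjusted p = 0.0846). *Tle2*, a Groucho co-repressor that works with HES proteins, had 77.2, 128, 93.4 and 72.1 CPM in control and 69.8, 31.0, 45.1, 42.8 and 67.3 CPM in mutant libraries, without overlap. It fell by 0.85 on the log2 scale (edgeR, adjusted p = 0.0271 with a standard error of 0.23), and the call was lost without control replicate 72 (−0.66, adjusted p = 0.0899) or 73 (−0.85, adjusted p = 0.0672), or mutant replicate 77 (−0.81, adjusted p = 0.0606) or 78 (−0.80, adjusted p = 0.0643), and with no low-count filter (adjusted p = 0.0511). *Tle2* was the 1 called gene of 13 co-repressors in the edgeR fit (7.69%, beside 14.8% of all genes tested). DESeq2 called 1 and limma-voom 3 of the 13, beside 17.7% and 32.4% of all genes. The most abundant of them, *Aes*, had 573 CPM in control and 517 CPM in mutant libraries.

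**Figure D5:**
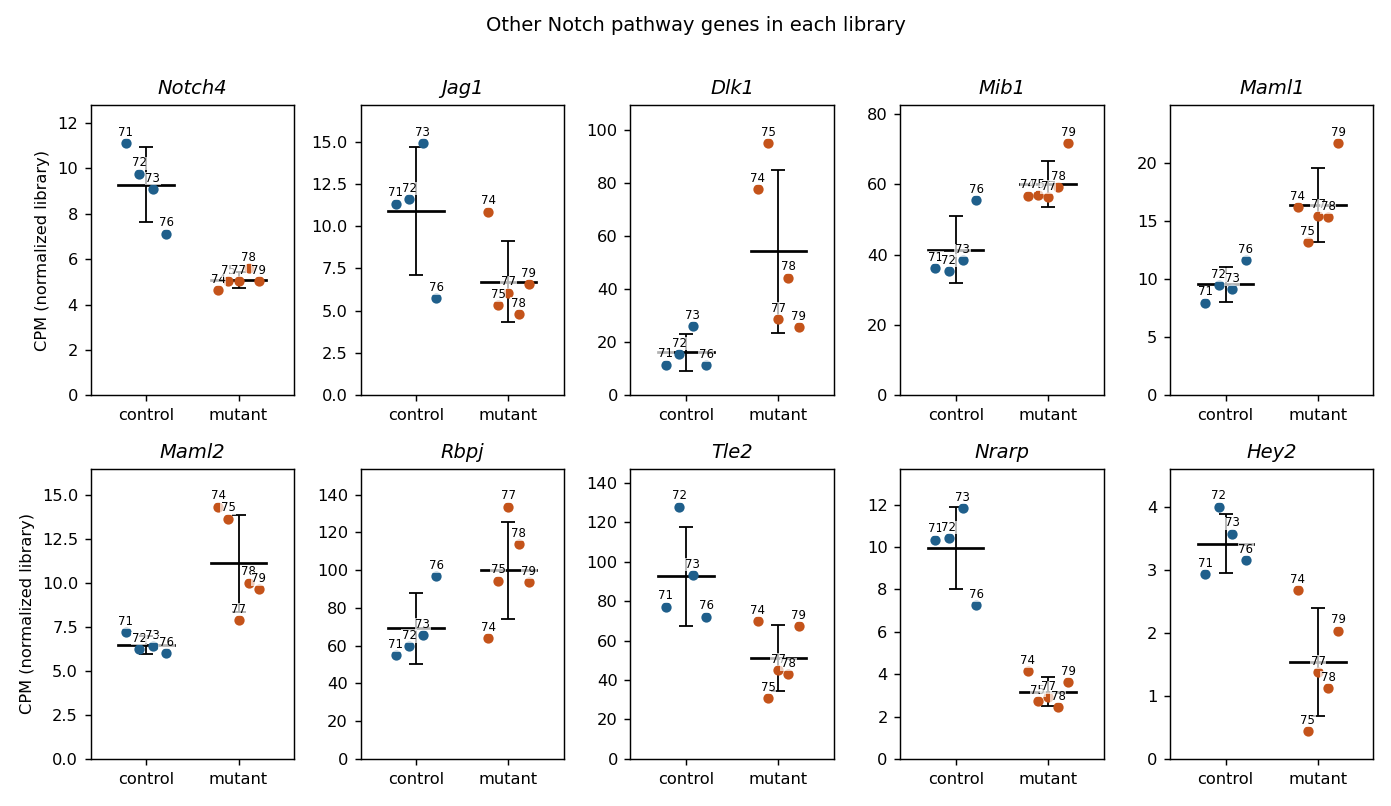
CPM of 10 further Notch pathway genes in each library, with 1 point per library labelled by its replicate number, a line at the mean of the genotype and bars of 1 SD (4 control, 5 mutant libraries). *Nrarp*, *Notch4*, *Tle2* and *Hey2* lie wholly lower and *Mib1*, *Maml1* and *Maml2* wholly higher in mutant libraries, while *Jag1*, *Dlk1* and *Rbpj* overlap.

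The groups of genes for cleavage (10 tested), glycosylation (4 tested) and receptor turnover (9 tested) held no call in the edgeR fit. That fit called 14.8% of all genes tested. At an unadjusted p under 0.05 the edgeR fit held 5 cleavage genes, 1 glycosylation gene (*Pofut1*) and 2 turnover genes (*Itch* and *Dtx3l*), beside 31.4% of all genes tested. DESeq2 called 1 cleavage gene and none of the other two groups, and limma-voom called 5, 1 and 2, with 17.7% and 32.4% of all genes called by these tools.

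Markers of cell types were read beside these values. The sorted cells had the 9 progenitor markers at a sum of 1737, 1938, 1875 and 2126 CPM in control and 1992, 1952, 2294, 2303 and 2305 CPM in mutant libraries, with *Six2* as the most abundant (571 and 704 CPM, adjusted p = 0.131, edgeR) and none called in the edgeR fit. Markers of committed progenitors and renal vesicles, where Notch signaling is known to act, summed to 518, 546, 667 and 339 CPM in control and 305, 250, 365, 296 and 279 CPM in mutant libraries. Of these 8 genes, *Wnt4*, *Lhx1* and *Ccnd1* were called lower (37.5%). Among all genes tested, 14.8% were called and 7.02% called lower. All 8 had fitted values below 0, with a median log2 fold change of −0.96. The most abundant, *Pax8*, was at 182 and 181 CPM. Control replicate 76, which had the lowest control levels of *Nrarp*, *Jag1*, *Notch4* and *Heyl*, also had the lowest control sum of these markers. Among mutants, replicate 77 had the highest sum and the lowest *Heyl*. Mutant replicate 74, with the most *Nrarp*, *Jag1* and *Heyl* but the least *Notch4* of the mutants, had a sum of 305 CPM. Whether the changes of *Nrarp* and *Hes1* came with a different share of committed cells was not tested.

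*Notch3* and *Heyl* are also known from mural cells. The 5 mural markers summed to 108, 117, 140 and 102 CPM in control and 103, 147, 119, 70.0 and 136 CPM in mutant libraries, with overlap. Their most abundant gene *Mcam* was at 84.1 and 66.5 CPM, *Acta2* rose (14.6 to 38.1 CPM, adjusted p = 0.0485, edgeR), and *Cspg4* fell (13.9 to 4.51 CPM, adjusted p = 0.0160, edgeR). *Acta2* and *Cspg4* were the 2 genes called of 4 tested, beside 14.8% of all genes tested. The defining marker *Myh11* had at most 14 reads in any library.

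Of the 5 myeloid markers found, 1 was called (*Cd68*, higher), which is 20% beside 14.8% of all genes tested, and 4 were not. Together they summed to 2.30, 6.11, 2.57 and 7.47 CPM in control and 5.58, 28.6, 65.1, 26.3 and 28.6 CPM in mutant libraries. Mutant replicate 74 lay within the control range and the other mutant libraries above it. *Cd68* rose (2.28 to 8.73 CPM, adjusted p = 0.00874, edgeR), and *Lyz2* was the most abundant in mutant libraries (0.771 to 9.68 CPM). Mutant replicate 74, which had the least *Hes1* of the mutant libraries, also had the smallest myeloid sum of them, and mutant replicate 77 the most of both. Among controls, replicate 71 had the most *Hes1* and the smallest myeloid sum. Control replicate 76, with nearly as much *Hes1*, had the largest. The part of myeloid cells in the level of *Hes1* was not tested. Ureteric bud markers summed to 44.9 to 62.9 CPM in control and 27.3 to 49.4 CPM in mutant libraries, with *Hoxb7* as the most abundant, and *Ret* had at most 13 reads. Proximal tubule markers summed to 2.30 to 6.37 and 1.99 to 12.1 CPM, led by *Lrp2*, and erythroid markers to 1.18 to 2.53 and 1.33 to 2.19 CPM, led by *Alas2*.

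Overlapping genes touch some of these values. *Hes1*, *Hey1*, *Heyl*, *Lfng*, *Dlk1*, *Jag1* and *Hey2* have no annotated gene overlapping them in GENCODE M21. *Notch1* shares 1068 exon bases with *0610009E02Rik* on the opposite strand, which had 19 to 35 reads per library, *Notch3* shares 488 with *Gm17276* (0 to 13 reads), and *Dll1* shares 867 with *A930024N18Rik* (0 to 9 reads). Reads within these stretches could belong to either gene, which weighs most for *Dll1* with its 1 to 33 reads. *Maml1* shares 135 exon bases with *Gm26542* (0 to 9 reads) and *Tle2* shares 98 with *Gm15917* (0 to 7 reads), both on the opposite strand. *Notch2* shares 541 with *Gm42820* and *Maml2* shares 101 with *Gm22643*, each on its own strand.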

How the data were processed

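RNA was sequenced from eGFP-sorted SIX2 progenitors of control (n = 4) and mutant (n = 5) kidneys at age E18.5. Per the labels, cDNA was amplified from low-input RNA, poly(A) RNA was selected and libraries kept no strand information. The submitters' processing notes name STAR, DESeq2 and the build mm10, without versions; the tool that counted reads is not given in the sources used here. The authors deposited 1 column of whole read counts per gene and library, used here as deposited. Their FPKM, signal, log2 fold change and p-value columns were not used. Genes were matched by symbol, since some identifiers in the table belong to other genes, those of *Nrarp* and *Hes6* among them.

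Genotypes were compared with edgeR 4.0.16 under R 4.3.3 (filterByExpr, TMM, robust quasi-likelihood test) and Benjamini-Hochberg adjustment over 14990 genes. The test was also run on simulated data, and the outcome is not given here. The standard error is that of the log2 fold change. Depth was 21040536 to 23986458 counts per library, and counting error is larger for genes with few reads, in the set *Dll1*, *Jag2* and *Hes5*. Alternatives were DESeq2 1.42.0, limma-voom (limma 3.58.1) with quality weights per sample, RLE and upper-quartile factors, 2 other low-count filters, a log2 fold change limit of 1, a surrogate variable from sva 3.50.0, each library left out, and removal of a loess trend on gene length, which was added after the data were seen. Promoter windows are those of RefSeq, and gene overlaps those of GENCODE M21. A planned comparison of protein sequences was not analysed here, and a further pathway gene and a marker are not reported here. Figures were drawn with Python 3.11.15 and matplotlib 3.10.9.

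The 10 genes, the pathway and marker lists and the tests were chosen with earlier results of these data known. Genes named were the 10, *Uqcrq*, each further pathway gene that was called, *Jag1*, *Rbpj*, *Nrarp* and *Notch4* whatever their value, and the most abundant gene and defining markers of each marker list. Genes given as not called in lists, *Hey2*, *Hes6*, *Maml3* and the genes under an unadjusted p of 0.05 were named outside this rule.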

Additional observations from a re-analysis of the deposited data

Results flagged for a closer look

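A total of 3 values stood apart from the other libraries of their genotype by more than Dixon's limit, among 40 groups of 4 or 5 libraries, where chance gives about 1 in 20 groups (2 here). *Jag2* was 1.52 CPM in control replicate 76 and at most 0.662 CPM in the other controls. *Mib1* was 55.6 CPM in control replicate 76, with the next control at 38.4 CPM, and 71.8 CPM in mutant replicate 79, with the next mutant at 59.3 CPM. *Mib1* was not called without mutant replicate 79 (log2 fold change 0.47, adjusted p = 0.0683, edgeR). It was called without control replicate 76 (0.73, adjusted p = 0.00626, edgeR).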

How the results depend on the processing

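No paired analysis was possible because the genotypes share no replicate number. Across 17 refits of 19 genes (322 values), 280 kept their direction and their side of the threshold, 24 lost a call, 16 passed only in the alternative and 2 reversed. The 2 reversals were those of *Notch1*, at 0.027 with 1 surrogate variable and 0.038 without control replicate 72, and with 1 library left out its log2 fold change ran from −0.44 (without mutant replicate 74) to 0.038. Of the 14990 genes, 2225 were called, against 4858 by limma-voom, 799 with a log2 fold change of at least 1, and 1046 to 3136 with 1 library left out. Of the Notch set, 1 gene was called, against 2 by DESeq2, limma-voom or with 1 surrogate variable, 3 with the length trend removed, 0 with a log2 fold change of at least 1, and 0 to 2 with 1 library left out (0 without control replicate 72 or 73, 2 without control replicate 76 or mutant replicate 74). Of the further pathway genes, 7 were called, against 21 by limma-voom, 2 with a log2 fold change of at least 1, and 3 to 13 with 1 library left out (3 without control replicate 71, 72 or 73, 13 without mutant replicate 74). The cause was not tested. The median log2 fold change of the set was −0.23, between −0.25 and −0.21 with other scaling factors, and between −0.44 (without mutant replicate 74) and −0.14 (without control replicate 72) with 1 library left out. Depth limits *Dll1* and *Jag2*, with at most 38 reads per library, and *Hes5*, with at most 3.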
